A study of Enchytraeus albidus with 15 samples.

Results

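The 95 probes described here carry cDNA clone names that have no library prefix and contain SP6, such as P3_D4_SP6_1371437. They were chosen by name alone from the 1035 non-control probes of a microarray for Enchytraeus albidus, the white potworm, a small soil oligochaete used in ecotoxicity tests. The other 940 probes are 226 unprefixed clones with T7 names, 171 contigs, 345 clones prefixed Ealb_Met and 198 clones prefixed Ealb_Pest. The names read as a plate and a well (plate P3, well D4), and the 95 clones carry 95 different plate and well names, none of which has a T7 probe in the same well. The files hold neither gene names nor probe sequences, so each clone is described by its name and its levels. After its first mention a clone is called by plate and well.

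Adult, clitellate worms spent 2 days in OECD soil, an artificial test soil, and RNA came from whole bodies. The 5 groups were Ag-NPs 200 and Ag-NPs 100 (soil with silver nanoparticles at 200 or 100 mg/kg), AgNO3 200 and AgNO3 100 (soil with silver nitrate, a soluble silver salt, at 200 or 100 mg/kg) and CT (the same soil with no silver). Each group had 3 biological replicates, each a pooled extract of several worms on its own one-colour array, and the 15 arrays lay on 3 slides. The size and coating of the particles and the silver dissolved in the soil are not given in the sources used here.

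Silver ions bind thiol groups of proteins and disturb ion transport and the redox balance of cells, and animals commonly answer metal ions with metal-binding proteins, antioxidant enzymes and chaperones. Silver nitrate delivers ions directly, while nanoparticles release ions as they dissolve and can also be taken up as particles. SP6 and T7 are phage promoters that flank the insert in many cloning vectors, and primers on them read an insert from either end. A clone name of this kind therefore says how a library clone was sequenced and nothing of the gene it carries.

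A level is the log2 processed intensity of a probe, averaged over its 14 or 15 spots, minus the 75th percentile of its array, so 0 is the brightness of that percentile. That percentile lay between 16.9 and 54.3 intensity units, which is dim, and the number of arrays per group limits the precision. The spread of the negative control spots, a scanner statistic, was 12.6 on AgNO3 200 replicate 3, 9.87 on Ag-NPs 100 replicate 1 and 7.36 on CT replicate 3, and between 2.49 and 5.35 on the other 12 arrays. The first 3 of these arrays all lay on slide 3, where the spread ran between 4.27 and 12.6, against 2.49 to 4.26 on slides 1 and 2. Ag-NPs 100 lay on slide 3 alone, and the slides were scanned on 2 days, slide 3 on the second. CT, AgNO3 200 and Ag-NPs 200 each had only replicate 3 on slide 3, and AgNO3 100 had no array there.

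A clone was called detected, or well above background, where the scanner flagged at least a share of 0.5 of its spots on that array so. In Ag-NPs 200, 32, 40 and 38 of the 95 clones were well above background, and in Ag-NPs 100 the counts were 30, 27 and 36. In AgNO3 200 they were 38, 28 and 16, in AgNO3 100 they were 35, 51 and 36, and in CT they were 48, 45 and 17. The groups overlapped, and the lowest counts, 16 and 17, came from 2 of the 3 arrays with a wide control spread, both on slide 3. The part of control spread, slide and scan day in these counts was not tested.

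**Figure D1:**
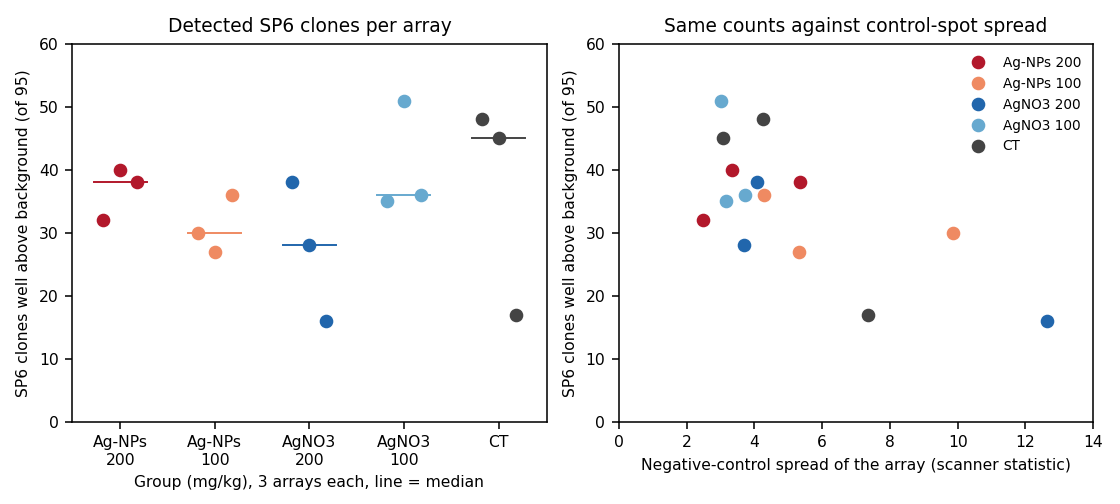
Number of the 95 SP6 clones well above background on each array, by group on the left (3 arrays each, line at the median) and against the spread of the array's negative control spots on the right. The counts run between 16 and 51, and the AgNO3 200 and CT arrays with 16 and 17 clones have control spreads of 12.6 and 7.36.

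Of the 95 clones, 16 were well above background on all 15 arrays, 43 on some and 36 on none. All 3 arrays of Ag-NPs 200 detected 31 of the clones, all 3 of Ag-NPs 100 detected 23, all 3 of AgNO3 200 detected 16, all 3 of AgNO3 100 detected 33 and all 3 of CT detected 17. In 2 groups the count was set by 1 array: without AgNO3 200 replicate 3 the count of that group was 28, and without CT replicate 3 that of CT was 43. Leaving out an array of the other 3 groups gave 31 to 38 in Ag-NPs 200, 23 to 26 in Ag-NPs 100 and 33 to 35 in AgNO3 100. Testing required detection on every array of some group and kept 36 of the 95 clones (37.9%), against 36.3% of the unprefixed T7 clones and 43.6% of all other probes. By plate, the tested clones were 8 of 16 on P1, 6 of 22 on P2, 4 of 13 on P3, 9 of 17 on P4, 9 of 25 on P5 and 0 of 2 on M_P4.

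The remaining 23 clones were detected on some arrays and not tested, and 9 of them were well above background on 1 array only. These were 4 clones on AgNO3 100 replicate 2, 3 on Ag-NPs 100 replicate 3, 1 on AgNO3 200 replicate 1 and 1 on CT replicate 1. AgNO3 100 replicate 2 was the brightest array, at 54.3, and Ag-NPs 100 replicate 3, at 17.3, was among the dimmest. Among all 1035 probes the same 4 arrays alone detected 31, 46, 6 and 5 probes, in that order of arrays. The 36 clones detected nowhere reached at most 6.63 intensity units on any array, and no clone was saturated on any array.

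Silver nitrate at 200 mg/kg changed 7 of the 36 tested clones against clean soil, 3 upward and 4 downward. Over all 446 tested probes of the array the same comparison called 48, or 10.8%, of which 7.85% of the tested probes were higher and 2.91% lower, at an adjusted p below 0.05 (limma, Benjamini-Hochberg over all tested probes). The arrays of the groups did not overlap for 15 of the 36 clones, 8 higher and 7 lower, against 32.5% of all tested probes, 19.1% higher and 13.5% lower, and 16 clones had an unadjusted limma p below 0.05, against 28.5%. The median difference was -0.40 over the 36 clones and -0.21 over all tested probes, on the log2 scale. In extracts of whole worms, fewer cells of a type and less RNA per cell cannot be told apart.

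P3_D4_SP6_1371437 rose most. Its levels were 2.11, 1.52 and 2.16 in AgNO3 200, against -0.64, 0.05 and -0.12 in CT. The 3 exposed arrays lay above all 3 clean-soil arrays, and all 15 arrays detected the clone. The difference was 2.17 ± 0.41 on the log2 scale (SE, 4.48-fold, limma adjusted p = 0.0119), and within slides 1, 2 and 3, each with 1 array of either group, it was 2.75, 1.47 and 2.27.

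P1_A9_SP6_1371384 had levels of 2.50, 1.98 and 2.52 in AgNO3 200, against 0.87, 1.21 and 0.41 in CT. P1_F12_SP6_1371398 had levels of 1.12, 0.79 and 1.47 in AgNO3 200, against -0.54, -0.04 and -0.70 in CT. Neither clone's groups overlapped, and in both clones AgNO3 200 replicate 2 was the lowest exposed array. P1_A9 rose by 1.50 ± 0.38 (limma adjusted p = 0.0282) and P1_F12 by 1.55 ± 0.46 (limma adjusted p = 0.0439). The differences within slides 1, 2 and 3 were 1.63, 0.77 and 2.11 for P1_A9 and 1.66, 0.83 and 2.17 for P1_F12. With the slide as a block the adjusted p was 0.0535 for P1_A9 and 0.0764 for P1_F12, while P3_D4 kept its call at 0.0185.

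The clone that fell most, P3_B4_SP6_1371433, had levels of -0.34, -1.45 and 1.07 in AgNO3 200, against 1.93, 2.57 and 1.66 in CT. The groups did not overlap, though AgNO3 200 replicate 3 came close to CT replicate 3. The difference was -2.29 ± 0.59 on the log2 scale (limma adjusted p = 0.0282), and it was -2.26, -4.02 and -0.59 within slides 1, 2 and 3. P4_C2_SP6_1371456 had levels of 3.87, 3.36 and 3.38 in AgNO3 200, against 6.08, 5.06 and 4.50 in CT, again without overlap. It fell by 1.68 ± 0.48 on the log2 scale (limma adjusted p = 0.0414), and within slides 1, 2 and 3 the difference was -2.21, -1.69 and -1.13.

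The other clones that fell were dim. P2_B10_SP6_1371406 had levels of -3.13, -3.95 and -2.41 in AgNO3 200, against -0.72, -0.83 and -1.51 in CT, and was not well above background on any AgNO3 200 array. Some but not all CT arrays detected it. Its measured difference was -2.15 ± 0.50 (limma adjusted p = 0.0190), and its AgNO3 200 level is only a bound. Its CT mean, which takes in CT levels not well above background, lay 1.35-fold above that bound. This bound sets the mean of the bright group against the lowest signal of a detected probe on each dim array, or the probe's own where that is higher. P4_B12_SP6_1371455 had levels of -1.63, -2.75 and -1.93 in AgNO3 200, against -0.21, 0.16 and -1.13 in CT, and was detected on 1 AgNO3 200 array and 2 CT arrays. Its measured difference was -1.71 ± 0.47 on the log2 scale (limma adjusted p = 0.0318), without overlap, and the size rests on AgNO3 200 levels that were mostly not well above background. With the slide as a block its adjusted p was 0.0596. Neither P2_B10 nor P4_B12 was detected on every array of AgNO3 200 or of CT, so both entered the test through other groups. The filter could admit a clone dim in AgNO3 200, while none entered through AgNO3 200 alone. The split into clones that rose and fell is therefore tied to the filter.

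**Figure D2:**
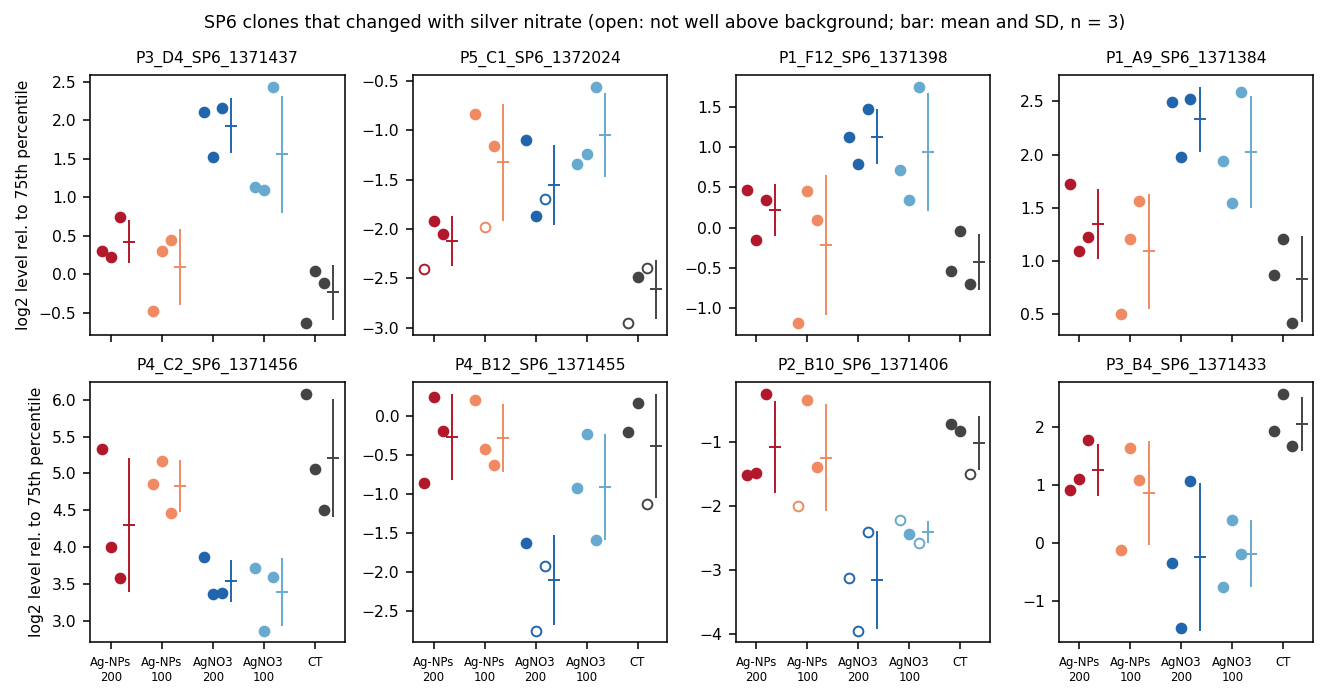
Level of each clone that changed with silver nitrate, per array and group (log2 relative to the array's 75th percentile, open points not well above background, bars mean and SD of 3 arrays). P3_D4 has AgNO3 200 levels of 1.52 to 2.16 above CT levels of -0.64 to 0.05, and P4_C2 has AgNO3 200 levels of 3.36 to 3.87 below CT levels of 4.50 to 6.08.

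The count of 7 rested on the arrays of the groups compared. It was 3 without AgNO3 200 replicate 1, 2 without AgNO3 200 replicate 2, 3 without AgNO3 200 replicate 3, 1 without CT replicate 1 and 2 without CT replicate 2. P3_D4 kept its call when any one of the 15 arrays was left out. The other calls ended without 3 arrays for P2_B10 (AgNO3 200 replicate 2 and CT replicates 1 and 2, adjusted p of 0.0569 to 0.0933), 4 for P1_A9 (AgNO3 200 replicates 1 and 3 and CT replicates 1 and 3, 0.0619 to 0.115), 4 for P3_B4 (AgNO3 200 and CT replicates 1 and 2, 0.0623 to 0.109) and 4 for P4_B12 (AgNO3 200 replicates 2 and 3 and CT replicates 1 and 2, 0.102 to 0.139). They ended without 7 arrays for P4_C2 (all of AgNO3 200, AgNO3 100 replicate 1, Ag-NPs 200 replicate 2 and CT replicates 1 and 2, 0.0537 to 0.207) and without 11 for P1_F12 (all of Ag-NPs 200, AgNO3 200 and CT, AgNO3 100 replicate 1 and Ag-NPs 100 replicate 3, 0.0508 to 0.153). Scaling by spike-in probes put the median of all tested probes at -0.88, against -0.21 with the percentile, and called 3 of the clones, 1 higher and 2 lower, while the direction of the 7 held. Relative to that median the differences do not depend on how a whole array is scaled, and they were 2.38 for P3_D4, 1.71 for P1_A9, 1.76 for P1_F12, -1.94 for P2_B10, -2.08 for P3_B4, -1.50 for P4_B12 and -1.47 for P4_C2.

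Without the 3 arrays of widest control spread, an alternative chosen after seeing the data, AgNO3 200 against CT again called 7 clones, of which 5 were the same. All 3 arrays lay on slide 3, so this comparison kept only replicates 1 and 2 of AgNO3 200 and of CT, on slides 1 and 2. Control spread and slide cannot be told apart here. P3_D4 (2.11, adjusted p = 0.0379), P3_B4 (-3.14, 0.0106), P2_B10 (0.0158), P4_B12 (-2.17, 0.0379) and P4_C2 (-1.95, 0.0483) kept their calls in limma. P1_A9 and P1_F12 were no longer called, with adjusted p of 0.0862 and 0.0956, and P2_B12_SP6_1371407 (0.0385) and P3_H9_SP6_1371447 (-1.47, 0.0483) were. No size is given for P2_B10 and P2_B12 here, which no AgNO3 200 array detected, and within slides 1, 2 and 3 the measured differences of P2_B12 were -1.66, -1.87 and 0.32. The same arrays left out, AgNO3 100 against CT called P3_B4 alone (-2.43, limma adjusted p = 0.0309).

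Silver nitrate at 100 mg/kg changed 2 of the 36 tested clones against clean soil, both upward, against 2.91% of all tested probes in either direction and 2.47% upward. The arrays did not overlap for 9 of the clones, 6 higher and 3 lower, against 15.9% of all tested probes, 11.4% higher and 4.48% lower. An unadjusted limma p below 0.05 was found for 8 clones, against 11.9%. P3_D4 had levels of 1.14, 1.10 and 2.44 in AgNO3 100, against the CT levels given above, and its difference was 1.80 ± 0.41 (limma adjusted p = 0.0363). P5_C1_SP6_1372024 had levels of -1.34, -1.25 and -0.56 in AgNO3 100, against -2.96, -2.49 and -2.39 in CT. Neither clone's groups overlapped, and P5_C1 was well above background on all 3 AgNO3 100 arrays and on 1 CT array. The measured difference of P5_C1 was 1.57 ± 0.37 (limma adjusted p = 0.0363), and its size rests on CT levels that were mostly not well above background. AgNO3 100, where P5_C1 was higher, met the detection filter for it, so its direction is tied to the filter and is not a separate result. With the slide as a block the adjusted p was 0.0955 for P3_D4 and 0.146 for P5_C1, and the differences within slides 1 and 2 were 1.78 and 1.72 for P3_D4 and 1.61 and 1.59 for P5_C1. The count of 2 was 0 without any one of AgNO3 100 replicates 1 and 3, Ag-NPs 200 replicates 2 and 3 or CT replicates 1, 2 and 3, was 1 without AgNO3 100 replicate 2 and was 4 without Ag-NPs 100 replicate 1. With normexp and quantile normalization neither P3_D4 (0.71, adjusted p = 0.0658) nor P5_C1 (0.19, 0.162) was called, and P3_B4 (-0.997, 0.0474) and P4_C2 (-1.75, 0.0474) were, both lower in AgNO3 100.

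The clones changed by 200 mg/kg are set beside their values at 100 mg/kg, with the limit that both comparisons use the same CT arrays. At 100 mg/kg P1_A9 had a difference of 1.20 and P1_F12 of 1.36, with adjusted p of 0.125 and 0.144 (limma). P3_B4 had -2.24 and P4_C2 -1.82, each with a limma adjusted p of 0.0555. P2_B10 had -1.40 (limma adjusted p = 0.177) and P4_B12 -0.52 (limma adjusted p = 0.960), and P5_C1, called at 100 mg/kg, had 1.06 at 200 mg/kg (limma adjusted p = 0.0894). None of these values passed the test.

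No clone passed the test between silver nanoparticles and clean soil. Ag-NPs 200 called 0 clones and 0.0% of all tested probes, with 1 clone at an unadjusted limma p below 0.05, against 9.87%, and its arrays did not overlap CT for 2 clones, against 14.6% of all tested probes. Ag-NPs 100 called 0 clones and 0.0% of all tested probes, with 1 clone at an unadjusted limma p below 0.05, against 2.24%, and did not overlap CT for 3 clones, against 4.71%. The clone with the most positive limma statistic for Ag-NPs 200 was P4_D2_SP6_1371461, with levels of 3.49, 4.94 and 4.58 in Ag-NPs 200, against 2.72, 3.13 and 3.71 in CT. These overlapped, and the difference of 1.15 ± 0.45 did not pass (limma adjusted p = 0.414), nor did the most negative, P4_C2, at -0.91 ± 0.48 (limma adjusted p = 0.517). For Ag-NPs 100 the most positive was P5_C1, with levels of -0.84, -1.98 and -1.16 and a difference of 1.29 ± 0.37 (limma adjusted p = 0.705), and the most negative was P3_B4, with -0.12, 1.63 and 1.08 and a difference of -1.19 ± 0.59 (limma adjusted p = 0.996).

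The clones that changed with the salt did not pass the test with nanoparticles, and their intervals were wide. P3_D4 had 0.30, 0.22 and 0.75 in Ag-NPs 200 and -0.47, 0.30 and 0.44 in Ag-NPs 100. Its difference from CT was 0.66 in Ag-NPs 200, with a 95% interval of -0.21 to 1.53, and 0.33 in Ag-NPs 100, with an interval of -0.54 to 1.20. P4_C2 ranged between 3.58 and 5.32 in Ag-NPs 200 and between 4.46 and 5.16 in Ag-NPs 100, so both groups overlapped CT. For 30 of the 36 clones in each nanoparticle comparison the whole 95% interval was smaller than 4-fold up or down, and it was smaller than 2-fold for 6 clones with Ag-NPs 200 and 4 with Ag-NPs 100.

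**Figure D3:**
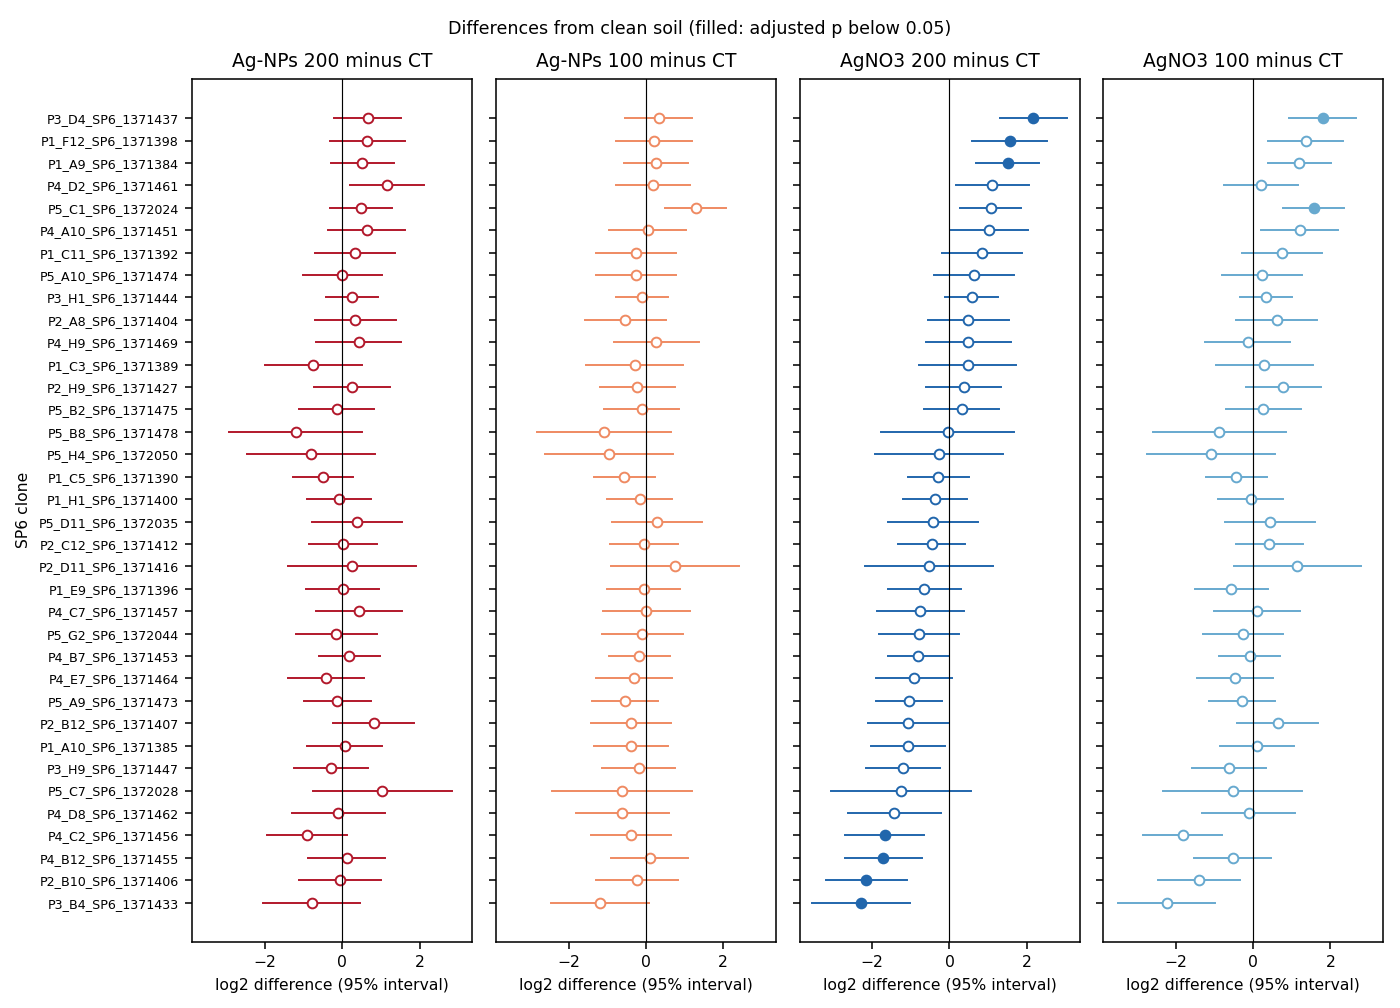
Log2 difference from CT with its 95% interval (limma) for the 36 tested clones in each silver group, ordered by the AgNO3 200 difference, filled where the adjusted p was below 0.05. P3_D4 lies at 2.17 in AgNO3 200 and 1.80 in AgNO3 100, and no point is filled in either nanoparticle group.

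The form of silver was compared at each concentration. At 200 mg/kg 0 of the 36 clones were called, against 1.12% of all tested probes, with 12 clones at an unadjusted limma p below 0.05, against 31.2%. The arrays did not overlap for 14 clones, 9 higher and 5 lower in Ag-NPs 200, against 35.2% of all tested probes, 21.1% higher and 14.1% lower. The smallest adjusted p belonged to P2_B10, whose levels were -1.51, -1.48 and -0.25 in Ag-NPs 200, against -3.13, -3.95 and -2.41 in AgNO3 200. Its groups did not overlap, and the measured difference of 2.09 ± 0.50 did not pass (limma adjusted p = 0.0532). Its Ag-NPs 200 mean lay 1.29-fold above the AgNO3 200 bound. P3_D4 had the most negative limma statistic, with a difference of -1.50 ± 0.41 (limma adjusted p = 0.0671). The count of 0 became 4 without Ag-NPs 200 replicate 1, 1 without AgNO3 200 replicate 1 or 3, 4 without Ag-NPs 100 replicate 1, 2 without Ag-NPs 100 replicate 2, 3 without AgNO3 100 replicate 3 and 3 without CT replicate 3. Without the 3 arrays of widest control spread it became 4, all higher in Ag-NPs 200: P3_B4 (2.16, limma adjusted p = 0.0241), P4_B12 (1.92, 0.0404), P2_B10 (0.0108) and P2_B12 (0.0146). No AgNO3 200 array detected P2_B10 or P2_B12, and over all arrays their Ag-NPs 200 means lay 1.29-fold and 1.56-fold above the AgNO3 200 bound. The 16 clones detected on all 3 AgNO3 200 arrays were the 16 detected on all 15, so no clone entered the test through AgNO3 200 alone. P2_B10, P2_B12 and P4_B12 entered through another group, so their direction is tied to the filter and is not a separate result.

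At 100 mg/kg 0 clones were called between the forms, against 1.12% of all tested probes, with 8 clones at an unadjusted limma p below 0.05, against 10.1%, and 7 clones whose arrays did not overlap, against 12.6%. P4_C2 had levels of 4.86, 5.16 and 4.46 in Ag-NPs 100, against 3.72, 2.86 and 3.59 in AgNO3 100, without overlap. That difference of 1.43 ± 0.48 had a limma adjusted p of 0.184. P3_D4 had a difference of -1.47 ± 0.41 (limma adjusted p = 0.116), also without overlap. All Ag-NPs 100 arrays lay on slide 3 and all AgNO3 100 arrays on slides 1 and 2, so for this pair slide and form cannot be told apart.

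The concentrations were compared within each form. AgNO3 200 against AgNO3 100 called 0 clones and 0.0% of all tested probes, with 6 clones at an unadjusted limma p below 0.05, against 19.7%, and 5 clones without overlap, against 19.1%. The most positive clone was P4_D2 (0.91 ± 0.45, limma adjusted p = 0.274). The most negative was P2_B12, with -2.63, -3.07 and -2.36 in AgNO3 200, against -0.77, -1.02 and -1.16 in AgNO3 100. Its groups did not overlap, and it was not detected on any AgNO3 200 array. Its AgNO3 100 mean lay 1.38-fold above the AgNO3 200 bound, and the difference did not pass (limma adjusted p = 0.170). Every AgNO3 100 array detected P2_B12, which met the filter, so this direction is tied to the filter and is not a separate result. Ag-NPs 200 against Ag-NPs 100 called 0 clones and 0.0% of all tested probes, with 3 clones at an unadjusted limma p below 0.05, against 6.95%, and 2 clones without overlap, against 8.74%. The extreme clones by limma statistic were P2_B12 at 1.19 ± 0.49 (limma adjusted p = 0.622) and P5_C1 at -0.80 ± 0.37 (limma adjusted p = 0.662).

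Whether the step between concentrations differed between the forms was tested as an interaction, coded as the nanoparticle step minus the silver nitrate step. It called 0 clones and 0.0% of all tested probes, with 3 clones at an unadjusted limma p below 0.05, against 11.4%. P2_B12 had the most positive limma statistic, with a measured value of 2.90 ± 0.69 (limma adjusted p = 0.159). That value rests on AgNO3 200 levels that were not well above background, and P2_B12 entered the test through other groups, so its direction is tied to the filter. P4_C2 had the most negative limma statistic, with a value of -0.67 ± 0.68 (limma adjusted p = 0.650). Without the 3 arrays of widest control spread P2_B12 was called (limma adjusted p = 0.00664), and since no AgNO3 200 array detected it, no size is given. Across all 5 groups at once, the limma F test called 2 clones, P3_D4 (adjusted p = 0.0186) and P2_B10 (adjusted p = 0.0417), against 4.04% of all tested probes, and 10 clones had an unadjusted p below 0.05, against 21.7%. The F-test call of P2_B10 ended without any one of CT replicates 1, 2 and 3, AgNO3 100 replicates 1, 2 and 3, AgNO3 200 replicates 1 and 2 or Ag-NPs 200 replicates 2 and 3, and that of P3_D4 without AgNO3 200 replicate 3. With the slide as a block neither clone was called, at adjusted p of 0.0745 for P3_D4 and 0.181 for P2_B10. P2_B10 was detected on every Ag-NPs 200 array and on no AgNO3 200 array, so its F-test call is tied to the detection filter.

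Some clones were well above background on all 3 arrays of a group and on none of another. P2_B10, P2_B12 and P5_A9_SP6_1371473 were so in Ag-NPs 200 and not in AgNO3 200, as were 14 of all 1035 probes. P1_C11_SP6_1371392, P2_A8_SP6_1371404 and P5_B2_SP6_1371475 were detected on no Ag-NPs 100 array and on all AgNO3 100 arrays, as were 30 of all probes. These groups shared no slide, so slide and form cannot be told apart here. P2_B12 was detected on no AgNO3 200 and all AgNO3 100 arrays, as were 19 of all probes, and P2_A8 on all Ag-NPs 200 and no Ag-NPs 100 arrays, as were 11. Of the Ag-NPs 200 arrays only replicate 3 shared slide 3 with Ag-NPs 100. No clone showed this pattern between a silver group and CT.

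These clones were dim throughout. P2_A8 had levels of -2.90, -3.01 and -1.51 in Ag-NPs 100, against -1.16, -1.96 and -0.84 in AgNO3 100, and the groups overlapped. P1_C11 had -3.47, -1.95 and -1.56 in Ag-NPs 100, against -1.49, -1.95 and -0.48 in AgNO3 100, again with overlap. At the same 100 mg/kg, the AgNO3 100 mean lay 1.29-fold above the Ag-NPs 100 bound for P1_C11 and 1.27-fold for P2_A8. Neither clone passed the test (limma adjusted p = 0.498 and 0.373). Both were picked because AgNO3 100 arrays detected them and Ag-NPs 100 arrays did not, so the direction follows from the choice. For P5_B2, with -3.10, -1.65 and -1.50 in Ag-NPs 100, against -1.72, -2.23 and -1.18 in AgNO3 100, no fold is given because the bound lay above the bright group. P5_A9 had -1.53, -1.02 and -1.13 in Ag-NPs 200, against -1.75, -2.44 and -2.28 in AgNO3 200, which did not overlap. Its Ag-NPs 200 mean lay 1.07-fold above the AgNO3 200 bound, and the difference did not pass (limma adjusted p = 0.137). That direction, too, follows from the choice by detection.

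**Figure D4:**
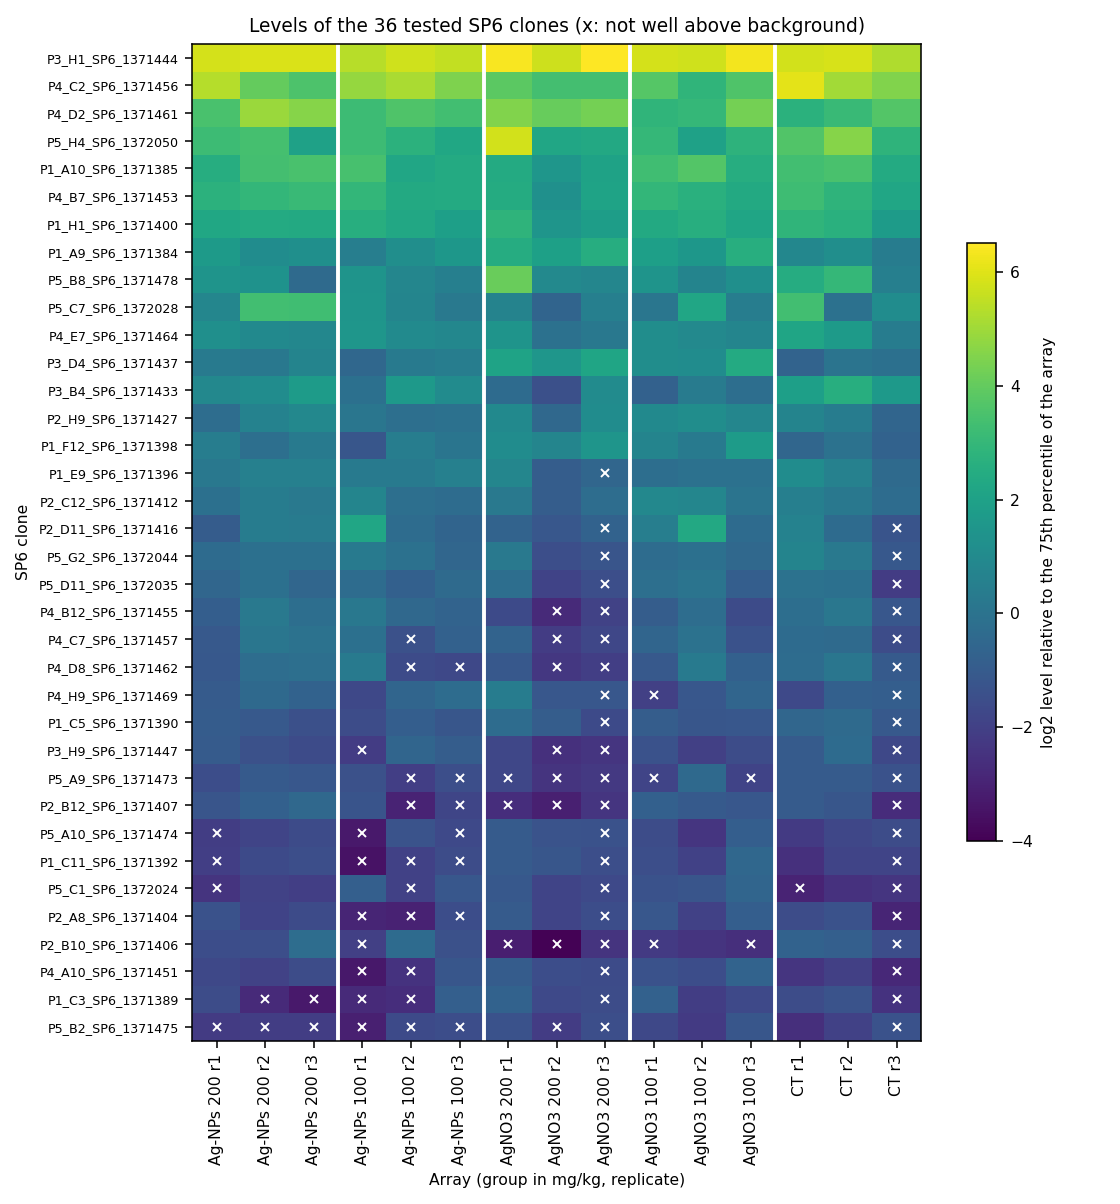
Levels of the 36 tested clones (rows, by mean level) on the 15 arrays (columns by group), as log2 relative to the array's 75th percentile, with a cross where the clone was not well above background. Crosses gather in the dim lower rows and on AgNO3 200 replicate 3 and CT replicate 3, and P3_H1 in the top row stays between 5.25 and 6.51.

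The clones with the brightest probes differed in how steady they were. Mean levels over the 15 arrays were 5.84 for P3_H1_SP6_1371444, 4.25 for P4_C2, 3.72 for P4_D2, 3.07 for P5_H4_SP6_1372050 and 2.81 for P1_A10_SP6_1371385. Probes bind their targets with unequal strength, so this order is one of probe signals and not of transcripts. P3_H1 also had the smallest spread between replicates, with a pooled SD of 0.29, and was followed by P1_C5_SP6_1371390 (0.40) and P4_B7_SP6_1371453 (0.41). The group means of P3_H1 spanned 0.66 on the log2 scale, whereas those of P4_C2 spanned 1.82.

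The largest spreads between replicates belonged to P5_C7_SP6_1372028 (pooled SD 1.20), P5_B8_SP6_1371478 (1.14) and P5_H4 (1.09). P5_C7 had levels of 0.83, 3.34 and 3.30 in Ag-NPs 200, 0.70, -0.61 and 0.52 in AgNO3 200 and 3.32, -0.08 and 1.12 in CT. Its high arrays thus lay in both silver and clean soil. P5_H4 had 5.77, 2.21 and 2.32 in AgNO3 200, against 3.64, 4.61 and 2.84 in CT, and P5_B8 had 4.11, 0.96 and 0.83 in AgNO3 200, against 2.49, 2.99 and 0.55 in CT. In both clones AgNO3 200 replicate 1 was the highest of the 15 arrays.

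Levels of some clones ran in parallel over the arrays. Among the 630 pairs of tested SP6 clones the median Pearson correlation of levels over the 15 arrays was 0.15, against 0.10 over all pairs of tested probes, 10 pairs (1.59%) were above 0.9, against 1.15% of all pairs, and 36 pairs (5.71%) were below -0.5, against 10.4% of all pairs. The points share the arrays and their brightness, so these values are descriptions. P1_A9 and P1_F12 correlated at 0.95, P1_F12 and P3_D4 at 0.93, P1_A9 and P3_D4 at 0.93, and P5_B8 and P5_H4 at 0.95. After subtraction of each group's mean these values were 0.88, 0.84, 0.72 and 0.96 in the same order of pairs. P1_H1_SP6_1371400, P4_E7_SP6_1371464 and P5_G2_SP6_1372044, chosen after their values were seen, correlated at 0.91 to 0.96, and none of them was called in any comparison.

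**Figure D5:**
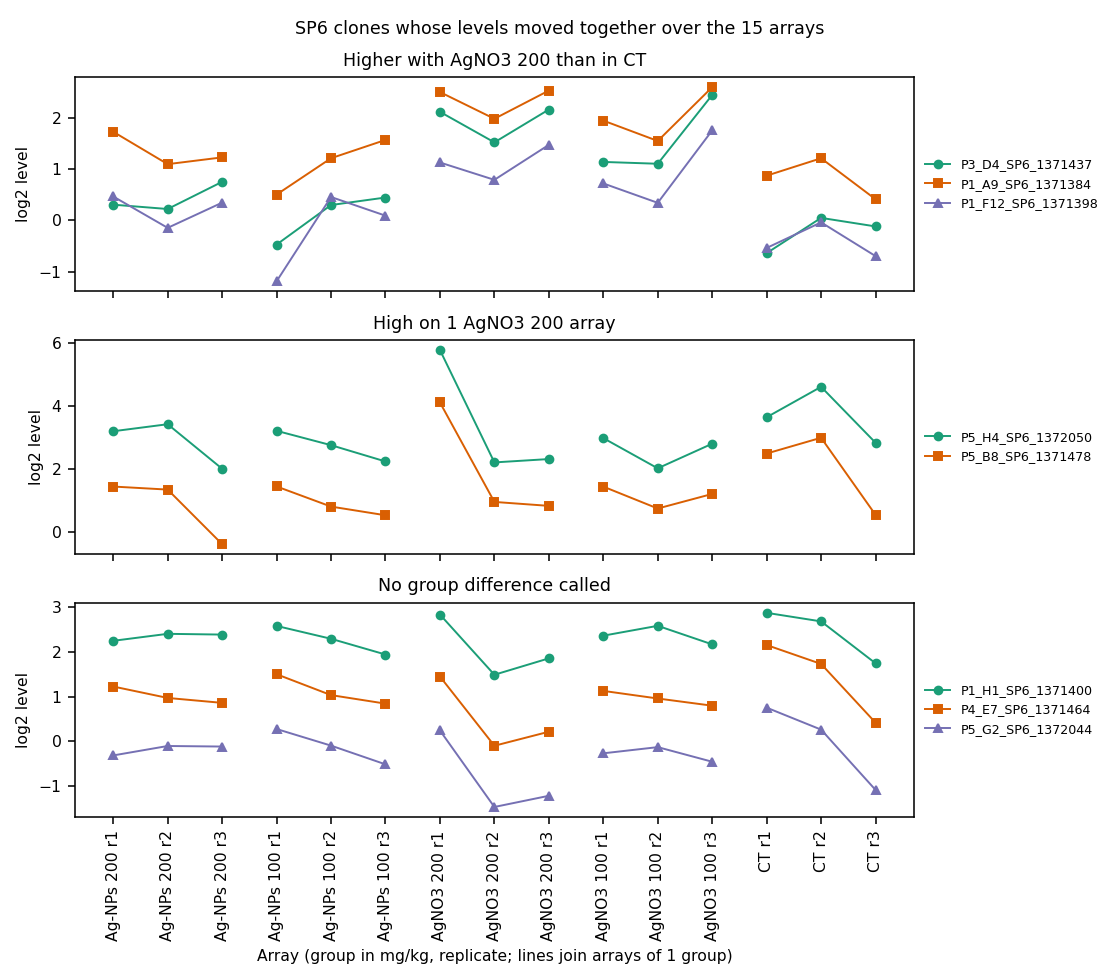
Levels (log2 relative to the array's 75th percentile) of 8 clones on the 15 arrays, in 3 panels of clones with correlations of 0.91 to 0.96 over arrays, with lines joining the arrays of a group. P3_D4, P1_A9 and P1_F12 are highest in the silver nitrate groups, P5_H4 and P5_B8 peak at 5.77 and 4.11 on AgNO3 200 replicate 1, and the lower panel follows array to array differences shared by P1_H1, P4_E7 and P5_G2.

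For each clone that changed, the probes of any kind with the most similar pattern over the 15 arrays were found by Pearson correlation. For P3_D4 they were Ealb_Met_P7_G12_SP6_2090688 and Ealb_Met_P3_G12_SP6_2090418, both at 0.96. For P1_A9 they were P5_D1_T7_1329795 (0.96) and P1_F12 (0.95), and for P1_F12 they were Ealb_Met_P6_A11_SP6_2090585 (0.97) and P5_D1_T7_1329795 (0.96). P1_A9 and P1_F12 thus had P5_D1_T7_1329795 in common.

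For P4_C2 the nearest were P5_D7_T7_1329838 (0.98) and P2_B1_T7_1328894 (0.97), and for P4_B12 they were P2_H8_T7_1328948 (0.95) and Contig72 (0.94). For P2_B10 they were P2_5A_T7_1328919 (0.95) and Contig11 (0.93), and for P3_B4 they were P2_B10 (0.87) and Contig11 (0.81). P2_B10 and P3_B4 thus shared Contig11 among their nearest probes, and after subtraction of each group's mean their correlations with Contig11 were 0.79 and 0.64. P5_C1 had no close neighbour: the nearest were Contig142 (0.75) and P2_C9_T7_1328951 (0.63), and these values dropped to 0.33 and 0.28 after subtraction of each group's mean.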

How the data were processed

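Each scanner file the authors deposited gives linear spot intensity, background-subtracted within each array by Agilent Feature Extraction 10.5.1.1, per the file headers and the submitters' processing notes. The authors' deposited table of the series holds log2 values with a median of 5.53 on every array. The sources used here do not give its normalization, and it served as an alternative.

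Control and outlier spots were left out, log2 processed signals were averaged per probe, and each array's 75th percentile was subtracted. The 446 probes detected on every array of some group were fitted with limma 3.58.1 (lmFit, eBayes) in R 4.3.3, in 1 fit of all 15 arrays with group as the only term. P-values were adjusted by Benjamini-Hochberg over the 446 probes, and only the SP6 clones are printed. A probe is said to have changed at an adjusted p below 0.05. The fit was tested on simulated data.

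Named were the clones called in any comparison and, in comparisons without a call, the clones with the extreme limma statistics. Also named were the 5 brightest, the 3 most and 3 least variable, and those detected in all arrays of a group and none of another. Similar probes were named by correlation. Members and lists were chosen with earlier results of these data known.

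Arrays of equal replicate number were not treated as paired. Their deviations from group means correlated at -0.505 to 0.742 over 30 pairs, 10 of them over 0.1. Arrays of unequal number gave -0.803 to 0.821 over 60 pairs, 23 of them over 0.1. Such overlapping ranges cannot exclude pairing of some arrays. Alternatives covered scaling, background correction (normexp, offset 50, on median signals, since mean signals were not used here), filters, blocks for slide and replicate number, brightness and each array left out.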

Additional observations from a re-analysis of the deposited data

How the results depend on the processing

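The differences of the called clones, and of the most extreme clones where none was called, kept their direction under the alternatives run. The cause of the changes below was not tested. Fits within a slide mostly set lone arrays against each other, assume that these vary like the replicated group of the slide, and bear little weight. Against CT, AgNO3 100 called 2 clones, both higher, and 1 higher with array median scaling and 2 lower and none higher with normexp. Without the 3 arrays of widest control spread (chosen after seeing the data) it called P3_B4 alone, lower. It called 0 with the percentile of probes detected on all arrays, spike-in scaling, the authors' values, no filter on dim probes, only the groups compared or the slide block. Another clone, P5_C7, had a difference of -3.21 within slide 1, from 1 array of each group, and of 1.41 within slide 2. AgNO3 200 called 7, and 4 with the brightness covariate, with only the groups compared or with the slide block, 3 with spike-in scaling or within slide 1, 1 with the authors' values or no filter, and 0 within slides 2 and 3. Between forms at 200 mg/kg, where 0 were called, the count was 1 with the authors' values or spot medians, 2 with normexp or within slide 1, 3 with only the groups compared, 4 without the 3 arrays and 7 with the brightness covariate. At 100 mg/kg it was 1 with array median scaling or brightness, and no fit within a slide was possible. AgNO3 200 against AgNO3 100 went to 1 with only the groups compared and 2 within slide 1, and the interaction to 1 with brightness or without the 3 arrays. The F test, at 2, gave 0 with spike-in scaling, the authors' values, no filter or the slide block, 1 with normexp or only probes detected on all arrays, and 6 with brightness. Leaving out 1 array gave 0 to 4 for AgNO3 100, 1 to 8 for AgNO3 200, 0 to 4 between forms at 200 mg/kg, 1 to 3 for the F test, 0 in the other comparisons and 36 to 44 tested clones. With the replicate number as a block, the F test called 1 clone, P3_D4, AgNO3 200 called 7, and AgNO3 100 called 2, P3_D4 (higher) and P4_C2 (lower, adjusted p = 0.0361), while P5_C1 was lost at 0.0513. P3_D4 in AgNO3 200 passed in 28 of 31 alternatives. Between 16.8 and 53.7% of the clones rose above background on an array, which limits what could be measured.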
